A study of Rattus with 6 samples.

Results

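The kinetochore, spindle checkpoint and mitotic kinase genes were taken by symbol from exon-level RNA-seq values of RC-4B/C, a line grown from a rat pituitary adenoma. The rule took all Cenp genes with a letter suffix, the Bub, Mad, Ska, Spc, Aurora and Polo-like kinase genes named in it, and a fixed set of partners such as Ndc80, Knl1, Ttk, Birc5, Tpx2, Cdc20 and Mki67. It found 53 genes of 12801, and all 53 were among the 12502 tested. Tested genes had a mean RPKM of at least 0.5 (reads per kilobase over the exons listed, scaled to the library's reads in all listed exons). Polyadenylated RNA of these cells was sequenced in 3 libraries treated with ASA (acetylsalicylic acid, aspirin) and 3 treated with DMSO, the control. The labels give the line and the agent, with no dose and no duration. They do not say that replicates are separate cultures, so p-values measure only the spread between these libraries. The comparison of ASA with DMSO addresses which transcripts aspirin changes in this line.

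The kinetochore is the protein assembly that ties each chromosome to spindle microtubules. Its inner layer sits on nucleosomes that hold the histone variant Cenpa, and its outer layer, built from the Knl1, Mis12 and Ndc80 complexes, grips the microtubule. Unattached kinetochores feed the spindle checkpoint, which holds Cdc20 inactive and so delays separase, while the Aurora and Polo-like kinases correct attachments and build the spindle. Most of these genes are transcribed mainly in the G2 and M phases of dividing cells and are little expressed in resting cells. In RNA from a whole culture, fewer dividing cells and less transcript per cell cannot be told apart.

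The listed exons held 66492445 to 94486062 recovered reads per library, and the members from 4 reads (Ska2 in ASA replicate 2) to 49226 (Mki67 in DMSO replicate 1). Replicates differed by more than sampling noise in every pair (chi-square per degree of freedom of 121.9 to 1109). Prl, the prolactin gene, lay between 14040 and 62170 RPKM and Pou1f1, its lineage activator, between 584 and 804. Of marker genes for other cell types that had values here, 2 of 4 for macrophages and leukocytes (Cd68 and Itgax) and 2 of 3 for fibroblasts and pericytes (Dcn and Pdgfrb) were called higher with ASA, and 4 of 11 pituitary endocrine markers lower. The summed level of the macrophage markers was 73.7 to 244 RPKM in ASA and 25.5 to 40.3 in DMSO libraries, and that of the fibroblast markers 2140 to 3280 and 1100 to 1170. Cd68 (28.85 to 210.1 in ASA, 1.903 to 2.999 in DMSO libraries) was the largest macrophage term in each ASA library. Cd14 had 19.33, 3.284 and 10.09 in ASA and 18.18, 19.83 and 34.51 in DMSO libraries. Dcn (2113 to 3207 in ASA libraries) made up most of the fibroblast sum, and the groups overlapped for Lum. The lists held 10 macrophage, 8 fibroblast and 6 folliculostellate genes, the last with no values. A rise of whole cell types cannot be read from these values. The endothelial marker Vwf lay between 0.311 and 0.865 RPKM. The part of these cell types in the results was not tested. ASA replicate 2 stood apart in quality. Exons of the members scattered in it by 0.546 on the log2 scale around their gene, against 0.16 to 0.205 in the other 5 libraries, and 5 of 573 member exons had 0 reads in it and none elsewhere.

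Some genes in every layer of the kinetochore had lower levels with ASA, though the calls depended on which libraries were in the test. In the limma test on log2(RPKM + 0.1), with a Benjamini-Hochberg adjusted p under 0.05 over all 12502 genes, 25 of the 53 members fell and none rose. Of all genes tested, 4.99% were called lower and 6.21% higher. The members were chosen with earlier results of these data known, so the shares are set side by side as a description. The log2 fold change was negative in 52 members, Cenpv being the exception, and its median was -1.77, against -0.0587 over all genes. In 42 members every ASA library lay below every DMSO library, which held for 18.8% of all genes, and in none did every ASA library lie above, which held for 19.9%. Together the members took 0.139%, 0.104% and 0.138% of reads in ASA replicates 1, 2 and 3, and 0.508%, 0.195% and 0.403% in DMSO replicates 1, 2 and 3. DMSO replicate 2 thus lay nearer to the ASA libraries than to the other DMSO libraries.

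**Figure D1:**
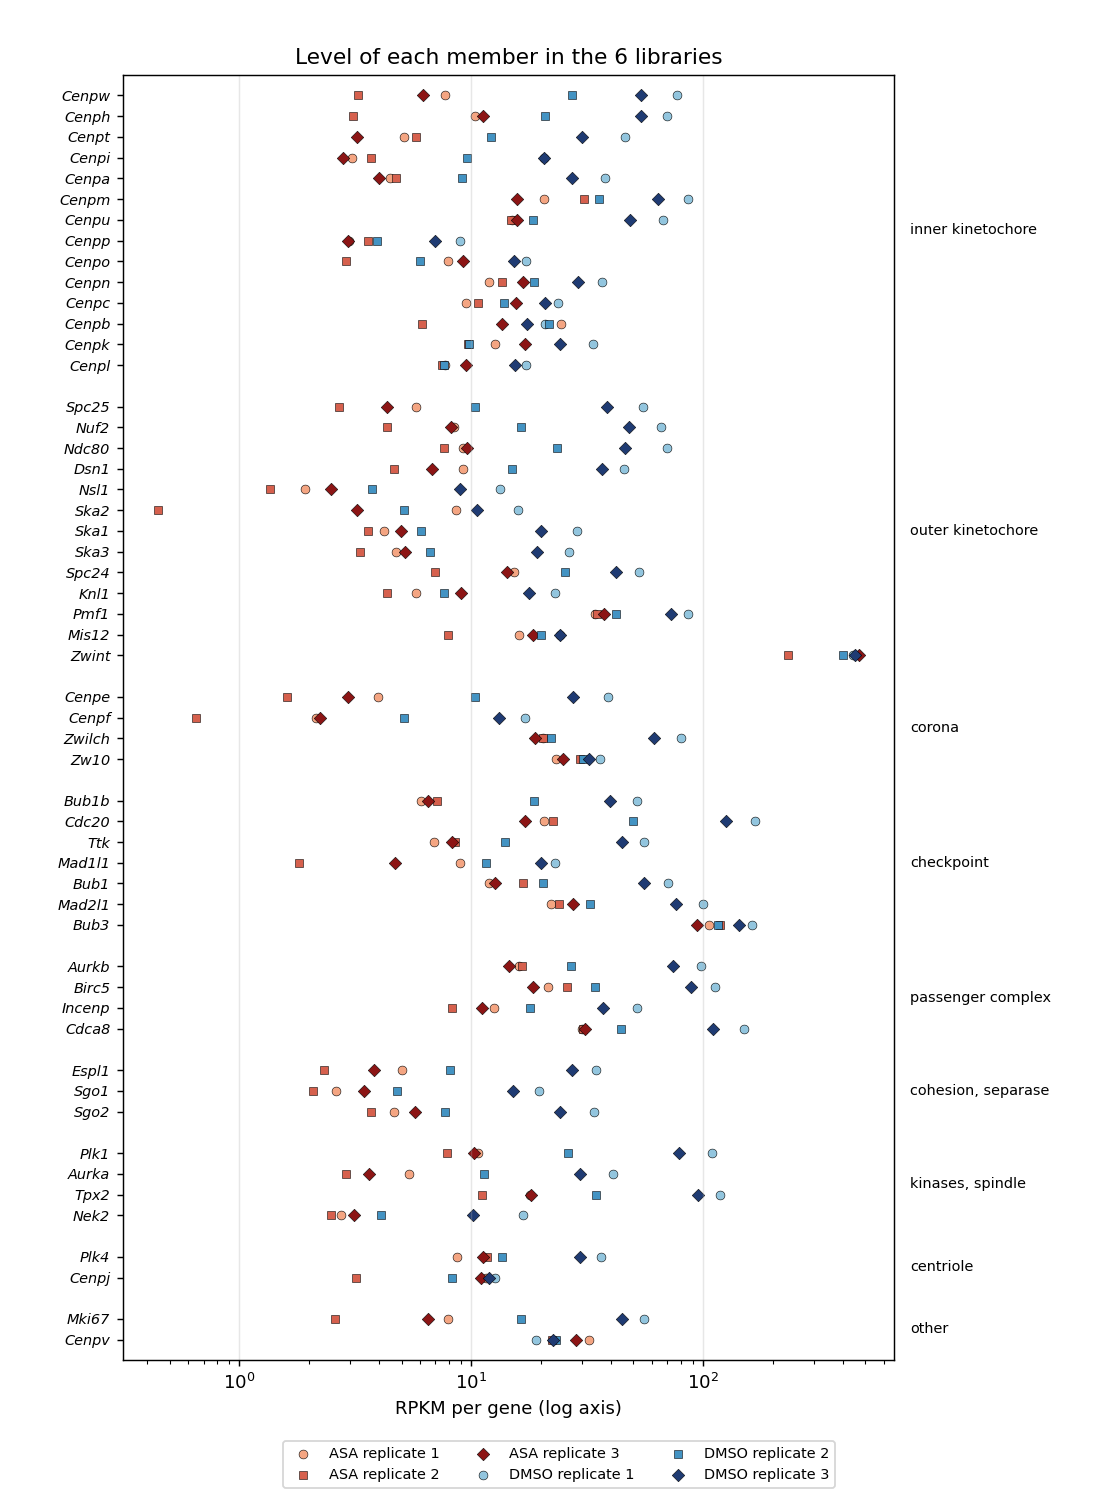
Level of each of the 53 members (RPKM, log axis) in the 6 libraries, 1 point per library, with genes grouped by role and ordered by log2 fold change. The ASA points lie to the left of the DMSO points in 42 members, DMSO replicate 2 (blue squares) lies between the groups in those rows, and Zwint, with 231 to 471 RPKM, stands far to the right.

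Levels differed widely between members. Zwint had the highest mean in DMSO libraries, 431 RPKM, followed by Bub3 with 140.3, Cdc20 with 114, Cdca8 with 101.5 and Tpx2 with 82.7. The lowest were Cenpp with 6.62, Nsl1 with 8.63 and Nek2 with 10.3. Bub3 exceeded Cdc20 in DMSO replicate 2 and 3 only, so the order of these neighbours was not resolved by the spread between libraries. The 2 members with the highest level were also among those whose difference did not pass the test.

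At the centromere, 5 of 14 members of the inner kinetochore fell, with a median log2 fold change of -1.17 over the 14. Cenpa, the histone H3 variant that marks the centromere (chromosome 6, 27074740 to 27080722, Rnor_6.0, the span of its listed exons), had 4.44, 4.73 and 3.98 RPKM in ASA replicates 1, 2 and 3 and 37.8, 9.08 and 27.2 in DMSO replicates 1, 2 and 3. All ASA values were under 5 and the lowest DMSO value, in replicate 2, was still above them. The difference was 4.73-fold (log2 fold change -2.24 ± 0.50 SE, limma adjusted p = 0.0349). Cenpw, a small histone-fold protein that pairs with Cenpt on centromeric DNA, had 7.69, 3.259 and 6.2 in ASA and 77.1, 27.1 and 53.7 in DMSO libraries. It was the member with the lowest p and the largest fall, 8.81-fold (log2 fold change -3.14 ± 0.46, adjusted p = 0.0148), though only a single exon of 120 bases is listed for it, with 26 to 874 reads.

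Cenpt, which carries Ndc80 complexes to the centromere, had 5.10, 5.79 and 3.21 RPKM in ASA and 46.0, 12.2 and 30.1 in DMSO libraries, 5.53-fold lower (adjusted p = 0.0279). Of its exon values 10.26% were not whole reads, and the cause was not tested. Cenpi had 3.06, 3.69 and 2.80 in ASA and 20.6, 9.53 and 20.5 in DMSO libraries, 4.91-fold lower (adjusted p = 0.0166), and Cenph, of the same subcomplex, fell 5.91-fold (adjusted p = 0.0397). The groups did not overlap for any of these 5. Cenpk, which joins Cenph and Cenpi in that subcomplex, had the largest p of the layer, with 12.7, 9.66 and 17.0 in ASA and 33.6, 9.82 and 24.1 in DMSO libraries (log2 fold change -0.64 ± 0.46, adjusted p = 0.379). Its DMSO replicate 2 value lay below 2 of the 3 ASA values. Cenpc, which binds the Cenpa nucleosome, and Cenpb, which binds centromeric repeats, did not pass either. They stood at -0.70 and -0.65 on the log2 scale (adjusted p = 0.166 and 0.377). Cenpm missed the threshold narrowly, with -1.42 (adjusted p = 0.05002), and the remaining 5 (Cenpu, Cenpn, Cenpp, Cenpo and Cenpl) lay between -1.36 and -0.62.

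In the outer kinetochore 6 of 13 members fell, and these included all genes of the Ndc80 complex. Ndc80 itself, whose head binds the microtubule (chromosome 9, 119840432 to 119869633), had 9.24, 7.64 and 9.55 RPKM in ASA and 70.0, 23.5 and 46.2 in DMSO libraries, 4.79-fold lower (log2 fold change -2.26 ± 0.39, adjusted p = 0.0201). Nuf2, its partner in the microtubule-binding arm, had 8.42, 4.33 and 8.19 in ASA and 65.8, 16.4 and 48.0 in DMSO libraries, 5.50-fold lower (adjusted p = 0.0325). For both genes the lowest DMSO library, replicate 2, lay well above the highest ASA library. Spc25, in the arm that docks on the Mis12 complex, had 5.80, 2.68 and 4.32 in ASA and 55.0, 10.4 and 38.5 in DMSO libraries, 6.74-fold lower (adjusted p = 0.0349). Its dimer partner Spc24 fell 3.31-fold (adjusted p = 0.0357). The ratio of subunits varied between libraries. Spc25 stood at 0.379, 0.385 and 0.303 of the Spc24 level in ASA and at 1.04, 0.41 and 0.912 in DMSO libraries, so DMSO replicate 2 was close to the ASA libraries in this ratio. Nuf2 stood at 0.911, 0.567 and 0.858 of Ndc80 in ASA and 0.94, 0.696 and 1.04 in DMSO libraries, so the groups overlapped. These pairs were chosen after their values were seen and the ratios were not tested.

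In the Mis12 complex, which bridges the inner and outer layers, Dsn1 and Nsl1 passed the test. Differences between the genes of this complex were not tested. Dsn1 had 9.18, 4.62 and 6.75 RPKM in ASA and 45.4, 14.99 and 36.5 in DMSO libraries, 4.37-fold lower (adjusted p = 0.0321), and Nsl1 fell 3.93-fold (adjusted p = 0.0453). Mis12 and Pmf1 did not pass, at -0.77 and -0.85 on the log2 scale (adjusted p = 0.172 and 0.085), though the groups did not overlap for them. Knl1, the scaffold that recruits Bub proteins, and Ska1, Ska2 and Ska3, which hold on to the shrinking microtubule, did not pass either, at -1.24, -1.82, -1.94 and -1.77 (adjusted p = 0.119, 0.0682, 0.213 and 0.0618). Ska2 rests on 1 exon of 135 bases. Zwint, a Knl1 partner also known from neurons as a binding protein of Snap25, had 449, 231 and 471 in ASA and 442, 399 and 453 in DMSO libraries. Its ASA values lay on both sides of the DMSO values, with only ASA replicate 2 low (log2 fold change -0.23 ± 0.29, adjusted p = 0.61), and the sign turned to 0.0962 without that library. Of its exon values 14.29% were not whole reads.

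**Figure D2:**
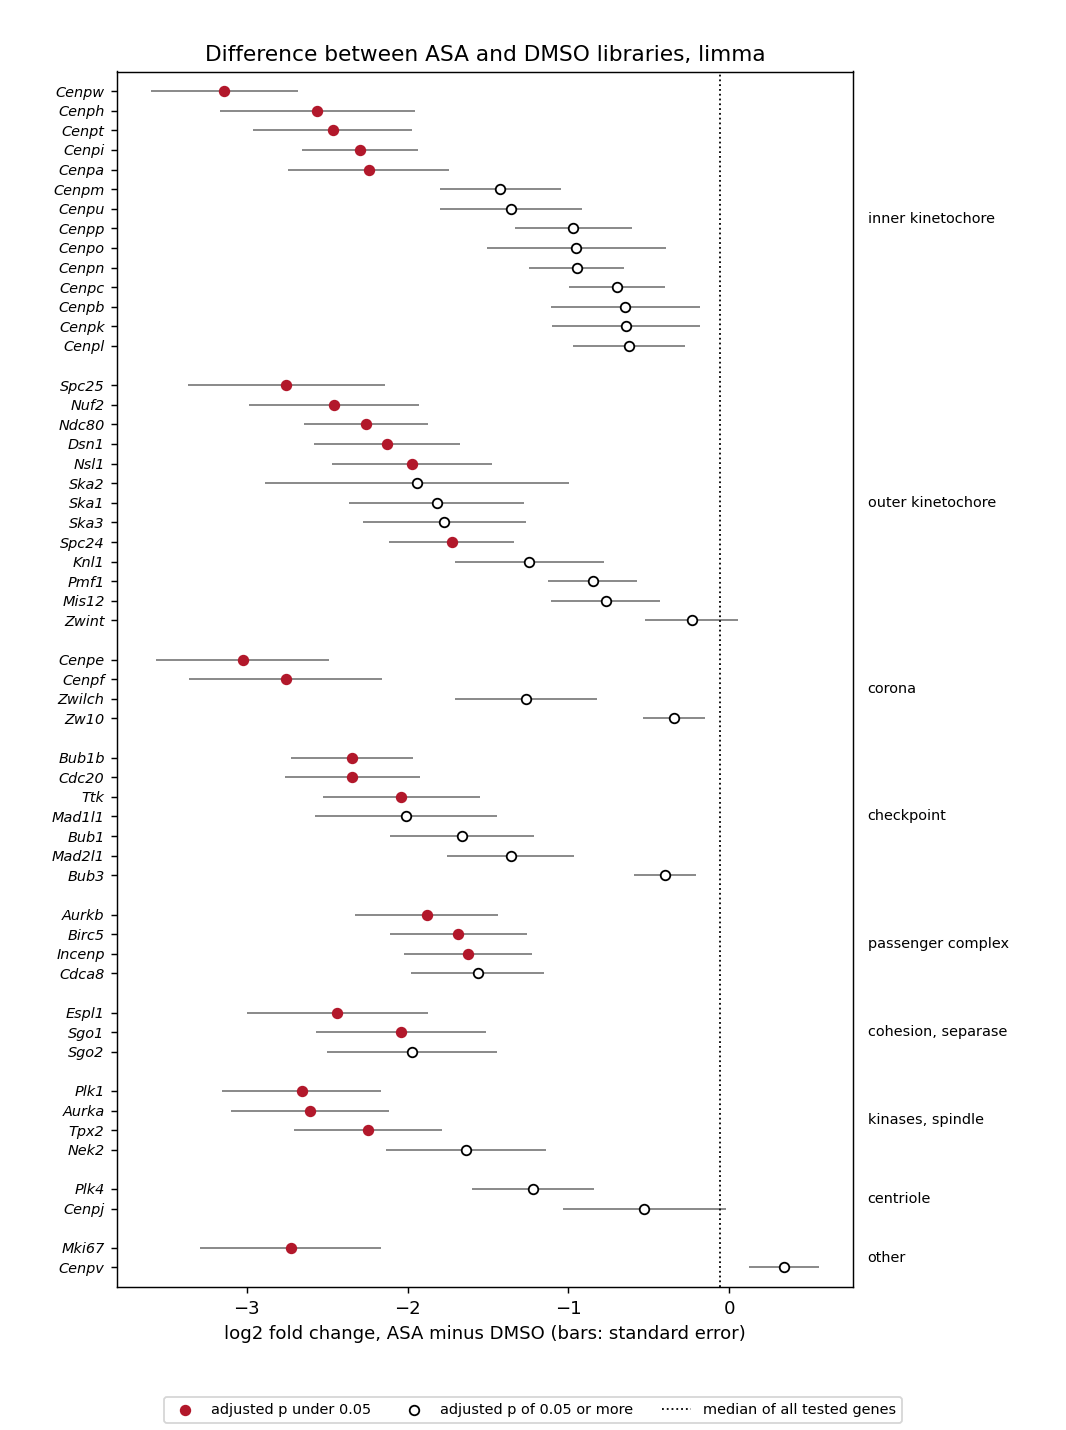
Log2 fold change of each member (ASA minus DMSO, limma, 3 libraries a group) with its standard error, by role. Filled points are the 25 genes with an adjusted p under 0.05; the dotted line is the median of all tested genes, -0.0587, and Cenpv is the only point to the right of 0.

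Of the 4 genes for corona proteins, which form the outermost kinetochore layer, the 2 with large products fell. Cenpe, the kinesin that carries chromosomes to the spindle equator (chromosome 2, 240396202 to 240454493), had 3.95, 1.61 and 2.93 RPKM in ASA and 39.0, 10.4 and 27.4 in DMSO libraries, 8.14-fold lower (log2 fold change -3.02 ± 0.54, adjusted p = 0.0209). Cenpf, a long coiled-coil protein, had 2.13, 0.647 and 2.22 in ASA and 17.0, 5.12 and 13.2 in DMSO libraries, 6.76-fold lower (adjusted p = 0.0332). The groups stood apart for both, with ASA replicate 2 lowest. Zwilch and Zw10 belong to the complex that brings dynein and Mad1 to the corona. Zwilch had 20.4, 20.4 and 18.8 in ASA and 80.3, 22.2 and 61.2 in DMSO libraries (log2 fold change -1.27 ± 0.44, adjusted p = 0.102). Its ASA values were tightly grouped, and DMSO replicate 2 lay just above them. Zw10 had 23.2, 29.5 and 24.8 in ASA and 35.96, 30.2 and 32.01 in DMSO libraries (log2 fold change -0.34 ± 0.19, adjusted p = 0.273).

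Of the 7 checkpoint genes 3 fell. Bub1b, the inhibitor of the anaphase-promoting complex known as BubR1 (chromosome 3, 110369583 to 110419375), had 6.09, 7.09 and 6.50 RPKM in ASA and 52.0, 18.6 and 39.7 in DMSO libraries, 5.09-fold lower (log2 fold change -2.35 ± 0.38, adjusted p = 0.0179). Cdc20, the activator of the anaphase-promoting complex that the checkpoint restrains, had 20.6, 22.5 and 17.0 in ASA and 168, 49.8 and 125 in DMSO libraries, 5.07-fold lower (adjusted p = 0.0212). Ttk, the kinase Mps1 that starts checkpoint signalling, had 6.92, 8.53 and 8.28 in ASA and 55.8, 14.02 and 44.4 in DMSO libraries, 4.11-fold lower (adjusted p = 0.0408). In all 3 genes the ASA libraries lay within a narrow band and every DMSO library lay above it. Of the Cdc20 values 16.67% were not whole reads.

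The kinase Bub1 had 11.9, 16.7 and 12.6 RPKM in ASA and 70.6, 20.3 and 55.8 in DMSO libraries and missed the threshold (log2 fold change -1.66 ± 0.45, adjusted p = 0.05275). Mad2l1, the Mad2 protein that closes around Cdc20, had 22.2, 23.97 and 27.5 in ASA and 99.7, 32.6 and 76.6 in DMSO libraries (log2 fold change -1.36 ± 0.39, adjusted p = 0.0633). Mad1l1, its kinetochore anchor, had 8.92, 1.80 and 4.70 in ASA and 23.02, 11.54 and 19.98 in DMSO libraries (log2 fold change -2.01 ± 0.56, adjusted p = 0.0594). The groups did not overlap in any of these 3. Bub3, the adaptor of Bub1 and Bub1b that also has roles outside mitosis, had 105.5, 118 and 94.4 in ASA and 162, 116 and 143 in DMSO libraries, with ASA replicate 2 above DMSO replicate 2 (log2 fold change -0.40 ± 0.19, adjusted p = 0.208).

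Of the 4 genes of the chromosomal passenger complex, which senses wrong attachments through Aurora B, 3 fell. Aurkb, the kinase, had 16.01, 16.5 and 14.5 RPKM in ASA and 97.9, 26.8 and 73.9 in DMSO libraries, 3.69-fold lower (log2 fold change -1.88 ± 0.44, adjusted p = 0.0396). Incenp, the scaffold, had 12.5, 8.25 and 11.1 in ASA and 51.8, 17.9 and 37.0 in DMSO libraries, 3.09-fold lower (adjusted p = 0.0423), with 17.65% of its values not whole reads. Birc5, the survivin that docks the complex on chromatin, had 21.3, 25.8 and 18.5 in ASA and 112, 34.2 and 88.5 in DMSO libraries, 3.21-fold lower (adjusted p = 0.0453). Cdca8, the fourth subunit, had 29.96, 30.2 and 30.98 in ASA and 149.9, 44.0 and 110.4 in DMSO libraries, and missed the threshold (log2 fold change -1.56 ± 0.41, adjusted p = 0.0507). The 4 log2 fold changes lay between -1.88 and -1.56, the narrowest range of any role group with more than 3 members, and no ASA value reached a DMSO value.

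Among genes that guard and cut sister cohesion, 2 of 3 fell. Espl1, the protease separase, had 5.02, 2.32 and 3.81 RPKM in ASA and 34.3, 8.13 and 27.1 in DMSO libraries, 5.42-fold lower (adjusted p = 0.0372). Sgo1, the shugoshin that shields cohesin at centromeres, had 2.61, 2.07 and 3.46 in ASA and 19.6, 4.79 and 15.1 in DMSO libraries, 4.11-fold lower (adjusted p = 0.0484). Sgo2, its relative, had 4.64, 3.71 and 5.74 in ASA and 33.7, 7.67 and 24.2 in DMSO libraries and was just outside the threshold (log2 fold change -1.97 ± 0.53, adjusted p = 0.0523). For all 3, DMSO replicate 2 was the lowest control library by a factor of more than 3.

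Of the 4 genes of the mitotic kinases and spindle assembly 3 fell, with the lowest median of the role groups, -2.42. Plk1, the Polo-like kinase that acts at centrosomes and kinetochores (chromosome 1, 192116074 to 192125669), had 10.6, 7.88 and 10.3 RPKM in ASA and 109, 26.1 and 78.7 in DMSO libraries, 6.32-fold lower (log2 fold change -2.66 ± 0.49, adjusted p = 0.0232). Aurka, the Aurora kinase of the spindle poles (chromosome 3, 170365337 to 170376205), had 5.37, 2.89 and 3.62 in ASA and 40.7, 11.3 and 29.3 in DMSO libraries, 6.09-fold lower (adjusted p = 0.0239). Tpx2, which activates Aurka on microtubules, had 17.9, 11.1 and 18.1 in ASA and 118, 34.5 and 95.3 in DMSO libraries, 4.74-fold lower (adjusted p = 0.0295). Every DMSO library exceeded every ASA library in these genes. Nek2, a kinase of centrosome separation, had 2.73, 2.48 and 3.13 in ASA and 16.7, 4.07 and 10.1 in DMSO libraries (log2 fold change -1.64 ± 0.50, adjusted p = 0.0709). Aurka stood at 0.335, 0.175 and 0.25 of the Aurkb level in ASA and at 0.416, 0.422 and 0.397 in DMSO libraries.

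Mki67, the proliferation marker that coats mitotic chromosomes (chromosome 1, 207994172 to 208020208), had 7.92, 2.58 and 6.51 RPKM in ASA and 55.7, 16.4 and 44.8 in DMSO libraries. The highest ASA value was under the lowest DMSO value (log2 fold change -2.73 ± 0.56, adjusted p = 0.0301). The centriole genes did not pass. Plk4, the kinase that starts centriole duplication, had 8.65, 11.7 and 11.2 in ASA and 36.4, 13.6 and 29.5 in DMSO libraries (log2 fold change -1.22 ± 0.38, adjusted p = 0.0753). Cenpj, a centriole assembly protein that shares the Cenp symbol, had 11.53, 3.18 and 11.02 in ASA and 12.6, 8.26 and 11.9 in DMSO libraries. Its value was low in ASA replicate 2 alone (log2 fold change -0.53 ± 0.50, adjusted p = 0.506, and 0.0702 without that library). Cenpv had 32.02, 22.3 and 28.4 in ASA and 19.1, 23.2 and 22.5 in DMSO libraries, with overlapping groups (log2 fold change 0.34 ± 0.22, adjusted p = 0.33).

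DMSO replicate 2 was a control library with low mitotic transcripts. It was the lowest of the 3 DMSO libraries in 51 of 53 members, all except Cenpb and Cenpv, which held for 46.1% of all genes. In 42 members it lay between the ASA libraries and the other DMSO libraries, a position taken by 10.7% of all genes. Set against the mean of DMSO replicates 1 and 3, the median member stood at -1.52 (log2) in DMSO replicate 2, beside -2.21, -2.46 and -2.17 in ASA replicates 1, 2 and 3. Over all genes these medians were -0.0436, 0.0662, -0.288 and 0.0483. The values share their reference libraries, so they are given side by side and no relation between them was computed. The gap between DMSO replicates 1 and 2 varied by gene. It was 5.30-fold for Spc25, 4.70-fold for Ska1 and 4.40-fold for Sgo2, and 1.19-fold for Zw10, 1.11-fold for Zwint and 1.40-fold for Bub3. DMSO replicate 1 was the highest of all 6 libraries in 49 members, against 21.4% of all genes. What set these control libraries apart is not in the labels and was not tested.

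**Figure D3:**
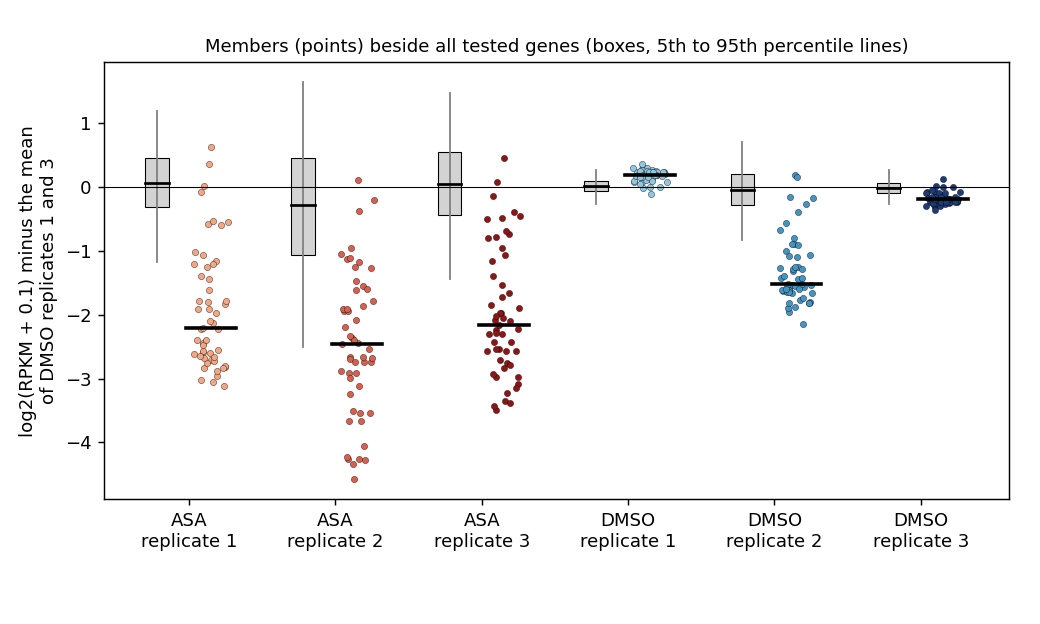
Log2(RPKM + 0.1) of each member (points, bar at the median) relative to the mean of DMSO replicates 1 and 3, per library, beside all 12502 tested genes (boxes show the quartiles, lines the 5th to 95th percentile). Median members sit at -2.21, -2.46 and -2.17 in the ASA libraries and at -1.52 in DMSO replicate 2, while the boxes stay near 0.

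How many members passed the test depended on which libraries were in it. Without DMSO replicate 2 the limma test called 37 of 53 members lower, against 2.55% of all genes, and without ASA replicate 2 it called 25, against 8.07%. With both left out it called 45 lower, against 11.4%. DMSO replicate 2 was the lowest DMSO library in 51 of the 53 members, so leaving it out raises their DMSO mean. The larger counts without it are therefore no separate support. The 25 members called with all libraries were among the 45, joined by Bub1, Mad2l1, Cdca8, Sgo2, Nek2, Plk4, Zwilch, Knl1, Ska1, Ska3 and 10 others. The 8 not called there were Zwint, Cenpb, Cenpj, Cenpv, Cenpc, Mis12, Zw10 and Ska2. Leaving out ASA replicate 3 ended every call, and so did leaving out DMSO replicate 3, over all genes as well as members (0.0% called). Leaving out DMSO replicate 1 ended every call among members, with 0.336% of all genes called lower. In these 3 fits the lowest adjusted p of a member was 0.0842, 0.0945 and 0.0603. An unadjusted p under 0.05 was then reached by 41, 36 and 34 members, against 23.4%, 18.8% and 20.6% of all genes. Without ASA replicate 1, where 21 members were called against 8.27% of all genes, Aurkb, Birc5, Nsl1, Sgo1 and Ttk lost their calls, and without ASA replicate 2 Incenp, Nsl1 and Sgo1 did. Among changes of method, library weights called 47 members lower (20.6% of all genes) and Cenpv higher (25.3% of all genes). The weights ran from 0.1045 in ASA replicate 2 to 8.709 in DMSO replicate 3, so the latter counted most in that fit. Quantile scaling called 31 lower (6.84%), and median-ratio scaling 27 (6.14%). A pseudocount of 1 gave 27 (5.37%), one of 0.01 gave 25 (4.85%), a filter at a mean RPKM of 1 gave 26 (5.15%) and no filter 25 (4.92%). The median exon per gene gave 24 (3.23%), voom on the recovered reads 22 (4.97%) and a fit with no variance trend 19 (3.78%). Birc5 and Sgo1 lost their calls in each of these last 3 fits, with limma adjusted p of 0.0508, 0.0598 and 0.0614 for Birc5 and of 0.0768, 0.0594 and 0.0574 for Sgo1. Nsl1 lost its call with voom (adjusted p = 0.0536). With no variance trend Aurkb, Cenph, Incenp and Ttk lost theirs too (adjusted p = 0.0529, 0.0523, 0.0543 and 0.0528).

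**Figure D4:**
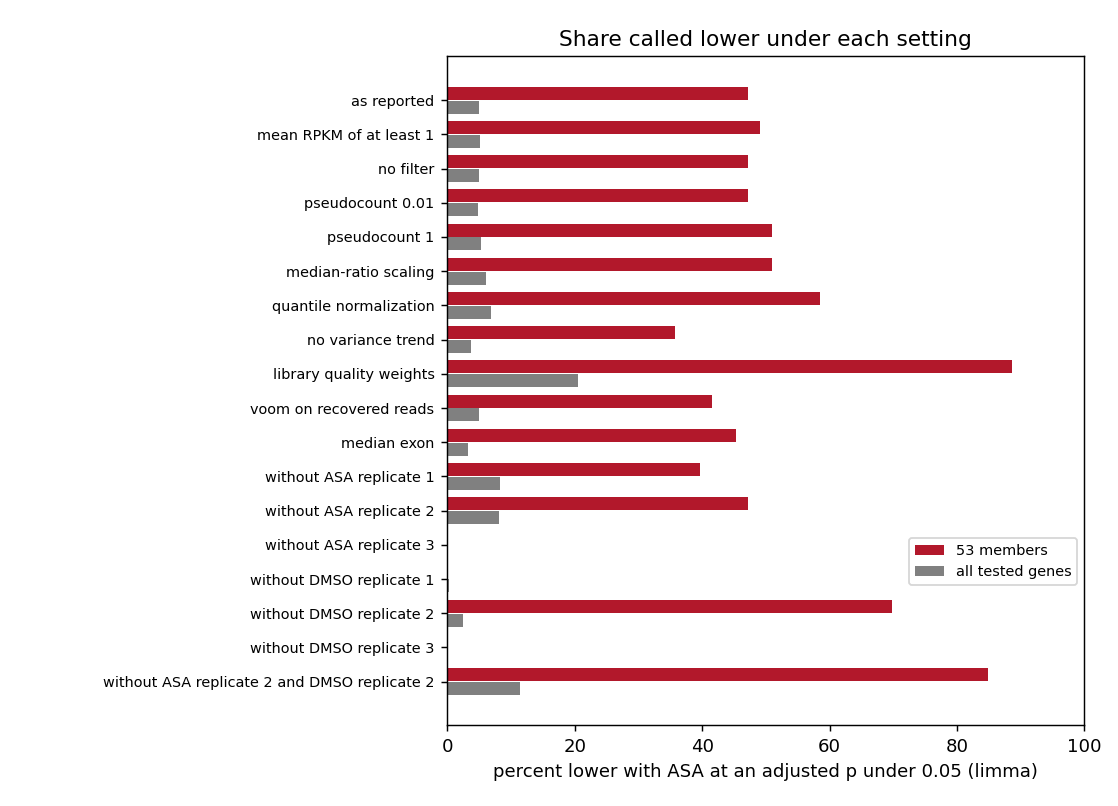
Percent of the 53 members (red) and of all tested genes (grey) called lower with ASA by limma under each setting. Bars run from 0 to 88.7% for the members and from 0 to 20.6% for all genes, and no member is called when any of ASA 3, DMSO 1 and DMSO 3 is left out.

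The fold changes kept their direction in most of these fits while their size moved. Without DMSO replicate 2 the log2 fold change of Spc25 was -3.47, and Plk1 was 9.62-fold lower, Espl1 8.39-fold, Nuf2 8.29-fold, Cenpa 7.19-fold, Sgo1 6.27-fold and Ttk 6.26-fold. Without ASA replicate 2 Cenph was 3.92-fold lower. These were the called members whose fold moved by more than 1.5 times without any single library. Among members not called with all libraries, Sgo2 went from 3.93-fold to 6.07-fold and Ska1 from 3.53-fold to 5.55-fold lower without DMSO replicate 2. Mad1l1 went from 4.03-fold to 2.67-fold lower without ASA replicate 2 and then passed the limma test (adjusted p = 0.0439). Ska2 went from 3.83-fold to 7.14-fold lower without ASA replicate 1 and to 1.79-fold without ASA replicate 2, and passed in neither fit. The median log2 fold change of the members lay between -2.31 (without DMSO replicate 2) and -1.37 (without DMSO replicate 1) when 1 library was left out.

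The difference ran along the listed exons of many members, though not of all. Of 573 listed exons of the members, 435 had every ASA library below every DMSO library and 3 had every ASA library above, the latter all in Cenpv. Over all 118147 exons these shares were 16.6% and 17.3%. Exons of a gene share their libraries and are not replicates. All 45 exons of Cenpe, all 22 of Bub1b, all 21 of Espl1, all 19 of Cenpi and all 18 of Cenpf were separated in this way, and so were 14 of 15 in Mki67, 19 of 25 in Bub1 and 5 of 14 in Knl1. In Cenpe and in Cenpf 2 exons each had 0 reads in ASA replicate 2, so their log2 ratios depend on the constant added before the log. None of the 7 Zwint exons and none of the 15 Cenpj exons was separated. Within a gene the log2 ratio could drift along the transcript. In Bub1b it went from -3.01 in the first listed exon to -2.01 in the last, and in Ndc80 from -1.83 to -2.87. ASA replicate 2 moved most along these genes, with 1.64 and 8.86 RPKM in the first and last exon of Bub1b and 23.7 and 2.45 in those of Ndc80. In Cenpn the second listed exon had a log2 ratio of 0.696, while the gene had a log2 fold change of -0.95 (limma adjusted p = 0.0765). That exon had 13.5, 10.6 and 16.3 in ASA and 12.2, 5.58 and 7.98 in DMSO libraries, so the groups overlapped. The last listed exon of Cenpk was positive too (0.476), also with overlap.

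**Figure D5:**
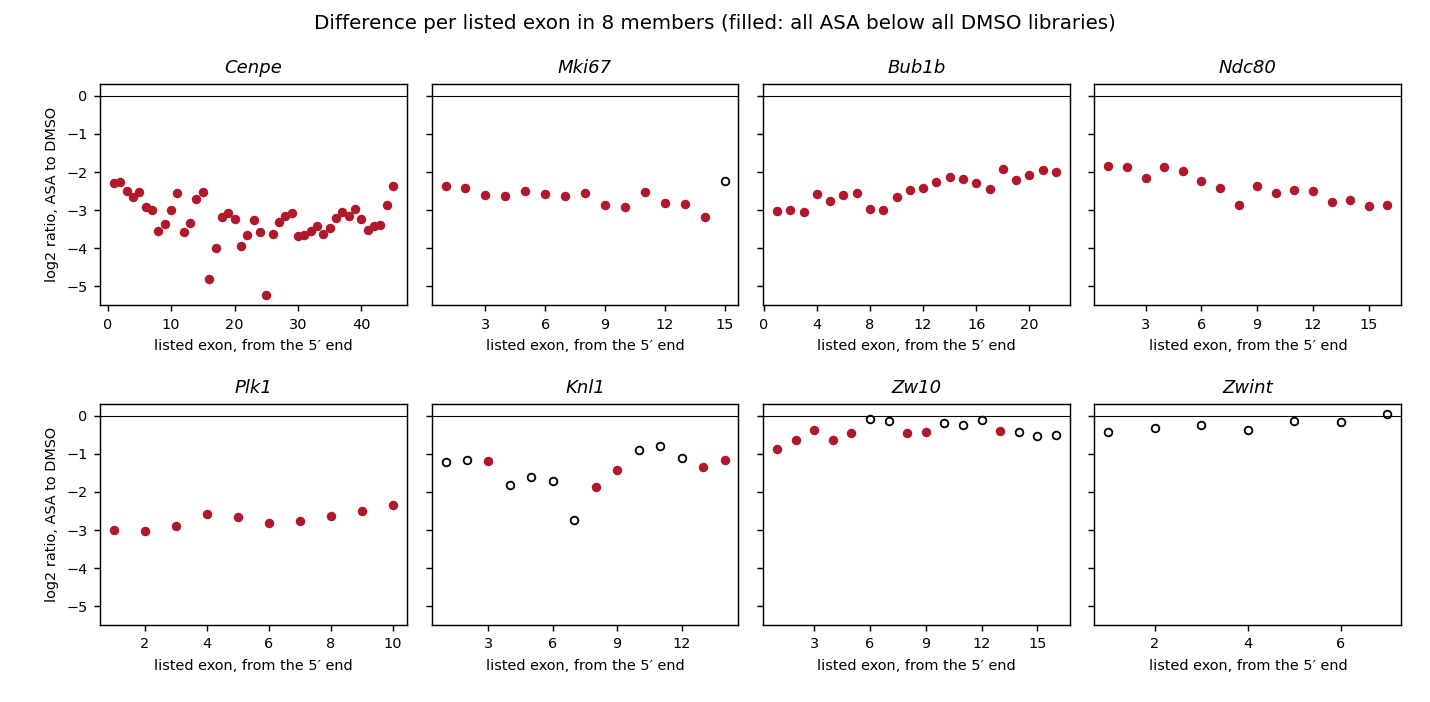
Log2 ratio of ASA to DMSO (difference of the mean deposited log2 values, 3 libraries a group) for each listed exon of 8 members, numbered from the 5′ end among the exons listed in the table; the genes were chosen after their values were seen. Filled points, in which all ASA libraries lie below all DMSO libraries, make up all 45 exons of Cenpe and none of the 7 of Zwint.

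Of 23 kinetochore genes outside the rule 6 fell and none rose. The shares of all tested genes called, 4.99% lower and 6.21% higher, are the background for this list and the 4 that follow, and differences between the lists were not tested. Kntc1, the partner of Zw10 and Zwilch, was 4.803-fold lower (adjusted p = 0.0198), Spdl1, the dynein adaptor at kinetochores, 7.54-fold (adjusted p = 0.032) and Knstrn 3.655-fold (adjusted p = 0.0322). The others that fell were Tacc3 and the Cenpa loading factors Hjurp and Oip5. Of 10 mitotic entry genes 4 fell, namely Ccnb1 (7.30-fold), Ccna2 (7.03-fold), Cdk1 (3.97-fold) and Mastl (4.73-fold). Of 21 cohesin and condensin genes 6 fell, among them the condensin genes Smc2 (5.09-fold), Ncaph (5.12-fold) and Ncapd3 (3.83-fold). The others that fell were the condensin gene Ncapg (4.06-fold) and the cohesion genes Cdca5 (4.10-fold) and Esco2 (6.35-fold). Esco2 had 0.329, 0.114 and 0.346 RPKM in ASA and 3.94, 0.767 and 2.89 in DMSO libraries. It passed the filter only through its DMSO level, and its ASA values lay near the added 0.1, so its fold is uncertain. The cohesin ring genes Smc3 and Rad21 and the loader gene Nipbl did not pass (log2 fold change -0.71, -1.09 and -0.04, adjusted p = 0.15, 0.0963 and 0.91). Nor did the condensin genes Smc4, Ncapd2, Ncapg2 and Ncaph2 (log2 fold change -1.31, -1.59, -1.37 and -0.52, adjusted p = 0.0699, 0.0534, 0.0837 and 0.343).

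The anaphase-promoting complex is the ubiquitin ligase that Cdc20 activates, and of its subunits and regulators 4 of 19 fell and the median was -0.56. Pttg1, the securin that holds separase inactive, was 5.16-fold lower, Ube2s, its ubiquitin-conjugating enzyme, 2.07-fold, and the core subunit gene Cdc27 1.62-fold (adjusted p = 0.01725, 0.03225 and 0.0412). The fourth was Fbxo5. Of 19 transcription regulators of the cell cycle 3 fell and none rose. Foxm1, an activator of G2/M genes, had 5.35, 2.925 and 2.90 RPKM in ASA and 31.7, 8.14 and 20.4 in DMSO libraries, 4.775-fold lower (adjusted p = 0.0366), and the repressors E2f8 and E2f7 were 9.84-fold and 7.13-fold lower (adjusted p = 0.0285 and 0.0495). Mybl2, the B-MYB partner of the MuvB complex, missed the threshold (log2 fold change -1.81, adjusted p = 0.0699). The MuvB core genes Lin9 and Lin54 and the pocket protein gene Rbl2 stood at -0.97, -0.19 and -0.0028 on the log2 scale (adjusted p = 0.212, 0.721 and 0.995). In each of these 5 lists every call was in the direction of lower levels with ASA.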

How the data were processed

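The 6 RNA-seq libraries were grouped by the treatment in their labels, 3 ASA and 3 DMSO, and replicate numbers follow the deposited order. Per the labels' protocols, libraries were directional and made from polyadenylated RNA. Named in the submitters' processing notes, with no roles, are TopHat2 2.1.0, Bowtie2, edgeR 3.26.8, Trim Galore 0.4.1, cutadapt 1.14 and the Rnor_6.0 build. How exons were counted is not given in the sources used here, nor is any use of strand. The authors deposited log2 RPKM values, 1 row per exon. On the linear scale and times exon length, each value was a constant (0.002915 RPM) and a multiple of the worth of 1 read. With the constant taken off, 95.7% to 96.8% of values per library came out whole within 0.02 read. A further 2.9% to 4.0% lay midway between whole reads. The worth of 1 read was itself chosen so that most values came out whole. Exons of each Ensembl gene were summed on the linear scale, after the constant was removed, and divided by their summed length. Each listed exon has over 10 reads in at least 4 libraries, which leaves out exons seen in only 1 group.

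The test was limma 3.58.1 (lmFit, eBayes with a trend, two-sided) on log2(RPKM + 0.1) for genes whose mean RPKM reached 0.5, adjusted over all of them. For genes at a low level the added 0.1 makes changes look smaller, and a fold is taken from the difference of mean log2 values. Named are all members, with the value in every library for 11 fixed genes and, in each role group, up to 3 members with the smallest p and 1 with the largest. Of the fixed pathway lists up to 3 genes with the smallest p and some fixed regulators are named. Genes that complete a count or show a complex are also named, chosen after their values were seen. These are Hjurp, Oip5, Tacc3, Mastl, Fbxo5, Ncapg, Cdca5, Esco2, Smc3, Rad21, Nipbl, Smc4, Ncapd2, Ncapg2 and Ncaph2. The members and lists were chosen with earlier results of these data known. The ratios of subunits and the genes in the plot of exons were also chosen after their values were seen. Alternatives were other filters, pseudocounts, scalings, variance models and gene values, voom on the recovered reads, and libraries left out. Library weights were estimated gene by gene, a method chosen after limma's default estimate had stopped before it converged. A planned motif search in promoters was not run, since promoter sequence was not used here. An exon of Ska3 overlaps an exon of Mrpl57 on the opposite strand, so without strand their reads cannot be told apart.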

Additional observations from a re-analysis of the deposited data

How the results depend on the processing

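With 1 library left out, the count of all genes called ranged from 0 to 2617 and that of members from 0 to 37. The members' median log2 fold change then ranged from -2.31 to -1.37. Member exons with every ASA library below every DMSO library numbered 435 to 538, against 18.2% to 26.5% of all exons. The 538 were reached without DMSO replicate 2, where the share of all exons was 24.7%, against 16.6% with all libraries. Without both libraries numbered 2, limma called 3153 genes and 45 members. Weighting libraries by their fit gave 5745 genes and 48 members, 47 of them lower and Cenpv higher. Taking each gene's median exon gave 900 genes and 24 members. In the other 8 settings 19 to 31 members were called, all lower. The cause of these shifts was not tested. The sign changed for Cenpj without ASA replicate 2 (-0.843 to 0.0702 with 1 library left out). Zwint changed sign without that library too (-0.416 to 0.0962 with 1 library left out), without both libraries numbered 2 (0.0417) and with library weights (0.0185). No paired analysis was possible because the labels carry no replicate numbers. A short listed length can leave few reads, with 4 to 202 in Ska2, for which 135 bases are listed.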
